A study of Mus musculus with 2 samples.

Results

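Among single cells prepared from the mouse retinal pigment epithelium (RPE), a small population carried pigment cell transcripts together with Pax6, Dkk3 or Map1b and very little Ttr, the transthyretin transcript that fills most RPE cells. These cells are called gated cells here, because they were chosen by a rule on 13 of their own transcripts. A gated cell had at least 500 genes, at most 5% mitochondrial UMIs, less than 3% of its UMIs from Ttr, at least 5 UMIs of Mlana, Dct and Trpm1 in sum, at least 1 UMI of Pax6, Dkk3 or Map1b, and fewer than 3 of the fibroblast genes Col1a1, Col1a2, Col3a1, Lum, Pdgfra and Mgp. The rule found 69 of 5838 cells, 53 of 2844 in mouse R1 and 16 of 2994 in mouse R2. They were compared within each mouse with its Ttr-rich cells, those with at least 5% Ttr, of which there were 2723 in R1 and 2947 in R2. A unique molecular identifier (UMI) marks one captured transcript, so that levels are counts of transcripts.

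Each library held the RPE cells of both eyes of 1 male C57BL/6J mouse, untreated, at postnatal day 36 by the study's methods and at 4 to 5 weeks by the sample labels. Retina and anterior segment were dissected away, RPE sheets were released with trypsin and broken up, and live cells were sorted by calcein uptake and DAPI exclusion. The study asked how far RPE cells of 1 animal differ from each other. No groups of animals were compared, the replicates are 2 mice, and every cell of a mouse shares its dissection, sort and library.

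The RPE is a single layer of pigmented cells that recycles the retinoid chromophore of the photoreceptors (the visual cycle), engulfs shed photoreceptor tips and moves ions, glucose and lactate between blood and retina. It arises from the optic neuroepithelium, as do the retina and the epithelia of ciliary body and iris, and its progenitors carry eye field transcription factors such as Pax6 and Rax, which later fall in mature RPE. Melanin is made by the tyrosinase family, Tyr, Tyrp1 and Dct, in melanosomes that are shaped by Pmel and Mlana, and the same genes serve melanocytes of the neural crest.

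The gate separated cells across an empty interval. No cell past the quality limits had between 3% and 5% Ttr. The highest Ttr share inside the gate was 2.66% in R1 and 0.755% in R2, and the lowest share among Ttr-rich cells was 5.18% and 5.14%. The gated cell with the fewest pigment UMIs had 6 in R1 and 5 in R2, the next had 13 and 8, and the low-Ttr cell outside the gate with the most had 1 and 0. Gated cells made up 1.91% of 2782 cells past the quality limits in R1 (exact 95% Clopper-Pearson interval 1.43 to 2.48) and 0.539% of 2966 in R2 (0.309 to 0.875). The intervals cover counting error only. A further 6 low-Ttr cells of R1 and 3 of R2 stayed outside, of which 3 and 2 carried at least 3 of the fibroblast genes.

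**Figure D1:**
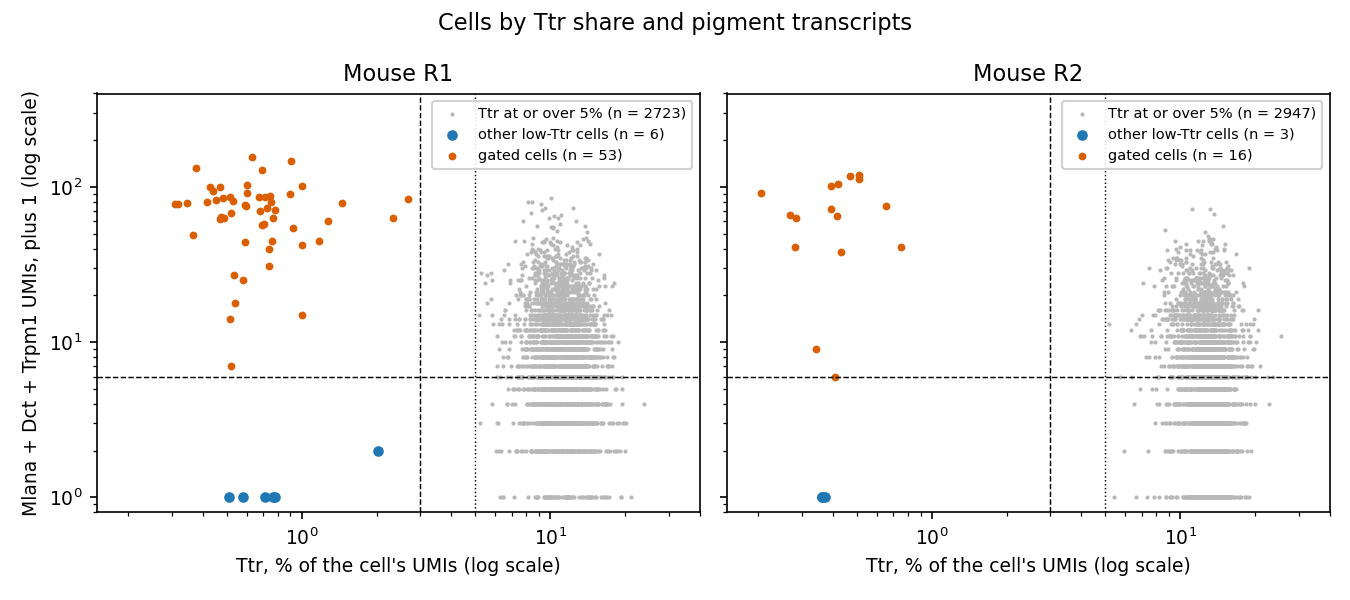
Share of Ttr among the UMIs of each cell (horizontal, %, log scale) against the summed UMIs of Mlana, Dct and Trpm1 plus 1 (vertical, log scale), with 1 point per cell past the quality limits, for R1 on the left and R2 on the right. Dashed lines mark the gate at 3% Ttr and 5 pigment UMIs and the dotted line 5% Ttr; the 53 and 16 gated cells stand at the upper left with no cell between 3% and 5%.

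The genes of the gate show what was chosen and carry no test. Dct transcripts were found in 52 of 53 gated cells of R1 and 14 of 16 of R2, Mlana in 52 and 14, and Trpm1 in 51 and 16. Dkk3 was found in 52 and 16, Pax6 in 45 and 11 and Map1b in 35 and 9 gated cells, and 28 and 5 cells held all 3. Of the cells, 1 in R1 and 2 in R2 held neither Dct nor Mlana and entered through Trpm1, and all of them were among the Fbln1-positive cells described further on. Per 10000 UMIs, gated cells held 136 (R1) and 85.6 (R2) of Dct, against 8.58 and 6.16 in Ttr-rich cells. Pax6 reached 7.76 and 5.10 against 0.0475 and 0.0271. No barcode of a gated cell occurred in the library of the other mouse, although 12 barcodes of the series did.

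Gated cells were shallower than Ttr-rich cells, with a median depth of 3205 against 8751 UMIs in R1 and of 4040.5 against 8158 UMIs in R2. Their median mitochondrial share was higher, 2.61% against 1.29% in R1 and 3.50% against 1.25% in R2. What part depth and mitochondrial share had in the differences that follow was not tested beyond a comparison with the 815 and 1148 Ttr-rich cells of at most 6000 UMIs and at least the lowest depth of a gated cell, whose median depth was 4182 and 3670 UMIs. In it 333 genes were called higher and 510 lower. Free RNA of burst cells also enters every droplet. The median Ttr share was 0.602% and 0.410% in gated cells and 0.579% and 0.362% in the fibroblast-marked low-Ttr cells, 3 in R1 and 2 in R2. Both kinds of cell were chosen for less than 3% Ttr, so the likeness of these shares is no finding, and the part of free RNA in them was not tested. Dct, Mlana, Trpm1, Pax6, Aldoc, Tyrp1, Pmel and Gpnmb had 0 UMIs in the fibroblast-marked cells of both mice, while Dkk3 had 1 and Map1b 3 in those of R1 and 0 in those of R2.

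UMIs were summed per mouse over gated and over Ttr-rich cells, which left 173900 and 25660266 UMIs for R1 and 82343 and 29542337 UMIs for R2. Across 11462 genes outside the gate, 351 were called higher in gated cells (3.06% of those tested) and 639 lower (5.57%) at an adjusted p under 0.05 (edgeR's quasi-likelihood test, mouse as block, Benjamini-Hochberg). Of these, 350 and 633 had the same direction per 10000 UMIs in both mice. Of the 639 genes, 66 had no UMI in the gated cells of either mouse. The median log2 fold change (log2FC) over all genes was -0.37 with TMM scaling and 0.31 without it, and 0.08 with the genes at 0 in gated cells placed at the bound that 3 UMIs per library allow. Without TMM, 872 genes (7.61%) were called higher and 338 (2.95%) lower, so that 72.1% of the calls were higher against 35.5% with TMM. All 351 genes called higher remained so without TMM, and the 338 genes called lower there were all among the 639. No gene was called in opposite directions by the scalings. The cells were chosen to differ from the rest, and genes that go along with the 13 gate genes are not independent of that choice, so the calls describe the chosen cells.

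**Figure D2:**
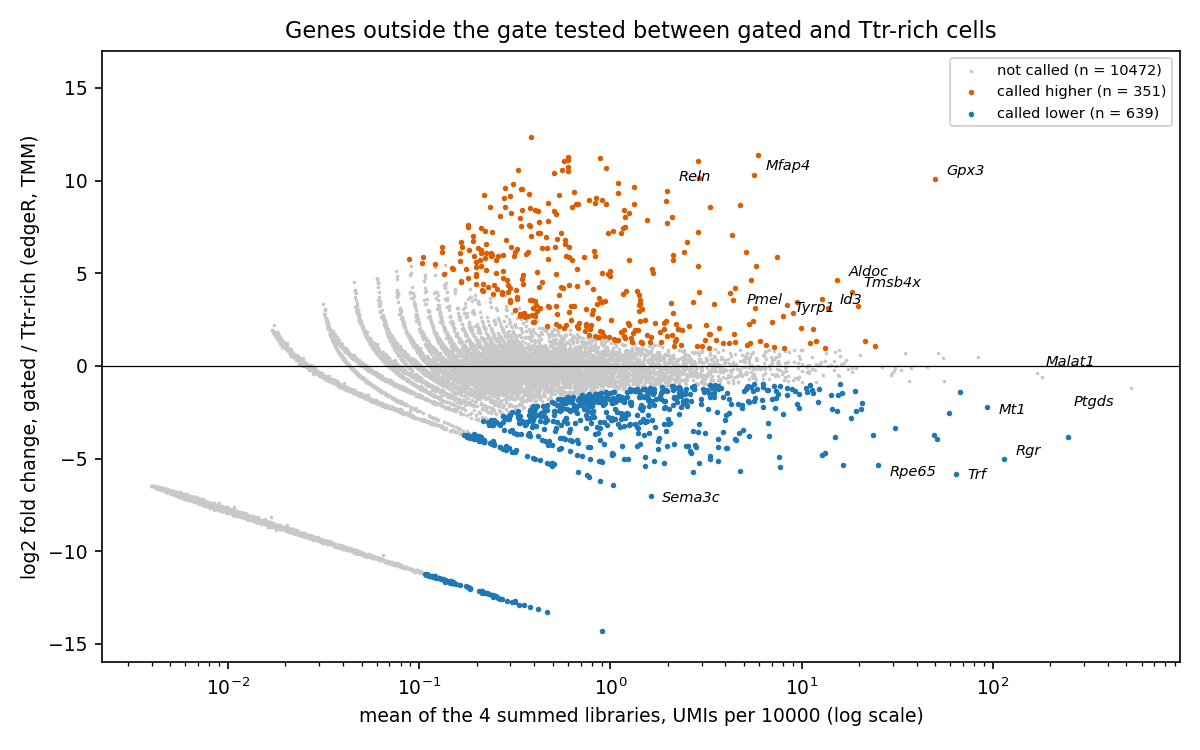
Mean level of each gene outside the gate over the 4 summed libraries (horizontal, UMIs per 10000, log scale) against its log2FC between gated and Ttr-rich cells (vertical, edgeR with TMM), with the 351 genes called higher in orange, the 639 called lower in blue and the rest in grey. The detached band below holds genes without a UMI in gated cells, whose fitted values are no measure of size; Gpx3 and Mfap4 lie high above 0, and Rpe65, Trf and Rgr far below.

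The transcripts of the visual cycle were low in gated cells. Of the 12 genes, 9 were called lower and 0 higher, with TMM and without it. This stands beside 5.57% and 3.06% of all genes with TMM and 2.95% and 7.61% without. With TMM the median log2FC was -4.32 (-3.95 with Rbp4, which had no UMI in gated cells, at its bound). Rpe65 (chr3:159599175-159625321, plus strand, GRCm38), the isomerase that regenerates cis retinol, was at 3.05 (R1) and 0.729 (R2) UMIs per 10000 in gated cells against 47.6 and 49.2 in Ttr-rich cells. Both gated values lay far under both Ttr-rich values, with a log2FC of -5.33 ± 0.45 (SE; edgeR adjusted p = 2.58e-30). Rgr, a retinal G protein-coupled receptor that takes part in the same cycle, was at 15.6 and 7.17 against 200.1 and 237.0. Its log2FC was -5.01 ± 0.51 (edgeR adjusted p = 4.07e-20). Lrat, which esterifies retinol, was at 0.863 and 0.607 against 14.1 and 15.1. The retinol dehydrogenases Rdh5 and Rdh10, the retinoid binding protein Rlbp1, the retinol binding protein receptor Stra6 and the opsin Rrh were also called lower. Dhrs3 and Rdh11 did not pass the test, with a log2FC of -0.08 and -1.44.

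Rpe65 was 15.6-fold (R1) and 67.6-fold (R2) lower in gated than in Ttr-rich cells, Rgr 12.8-fold and 33.1-fold, and Trf, the transferrin gene, 22.8-fold and 70.9-fold. Rlbp1 was 7.53-fold and 9.23-fold lower, Rdh5 8.43-fold and 8.10-fold, and Bsg, the chaperone of lactate transporters, 3.50-fold and 3.68-fold. In the few fibroblast-marked cells, Rgr had 17 and 2 UMIs (15.6 and 3.45 per 10000), Trf 7 and 2, Rdh5 5 and 4 and Bsg 22 and 11, and Rpe65, Rlbp1 and Lrat had none. The exact folds depended on how free RNA was treated. When 10% of the UMIs of each sum were removed in proportion to the summed profile of all cells of that mouse, a share that was set and not measured, gated cells of both mice were left with 0 UMIs of Rpe65, Rgr, Trf and Lrat, with 24 and 3 of Rlbp1, 29 and 18 of Rdh5 and 306 and 129 of Bsg. The fitted log2FC then went to -18.86 (Rpe65), -20.26 (Trf) and -21.01 (Rgr), values that are no measure of size at 0 UMIs. The true share of free RNA was not measured. After every cell was thinned to 2000 UMIs, Rpe65 was found in 52.8% of gated and 99.7% of Ttr-rich cells of R1 and in 6.25% and 99.8% of R2. Without thinning the shares were 56.6% and 99.96% in R1 and 25% and 100% in R2.

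Other genes of the mature RPE went the same way. Of 15 tested, 13 were called lower and 1 higher under both scalings, beside 5.57% and 3.06% of all genes with TMM and 2.95% and 7.61% without. With TMM the median log2FC was -2.54 (-2.03 with the genes at 0 placed at their bound). Without Fbln1-positive cells 11 were called lower and 1 higher, with a median log2FC of -2.77. Slc16a8, the lactate transporter MCT3 of the basal RPE membrane, was at 1.61 and 0.729 UMIs per 10000 in gated cells and at 32.8 and 30.5 in Ttr-rich cells (log2FC -5.37 ± 0.44, edgeR adjusted p = 1.44e-31). Enpp2, the enzyme autotaxin, Kcnj13, an apical potassium channel, and Ezr, which builds apical microvilli, were called lower with a log2FC of -4.82, -3.78 and -3.56. Mertk, the receptor for the engulfment of photoreceptor tips, had 0 UMIs in the gated cells of both mice. A floor of 3 UMIs per library makes it at least 3.24-fold (R1) and at least 1.46-fold (R2) lower. Serpinf1, the secreted factor PEDF, was the gene called higher, on 8 and 2 UMIs. Krt18, a keratin of simple epithelia, fell less (log2FC -1.48), with 7 of 300 UMIs (R1) and 5 of 62 (R2) in Fbln1-positive cells. Vegfa did not pass the test. Among transcription factors of the RPE, Otx2 (log2FC -1.68) and Sox9 (-2.48) were called lower, while Mitf (-1.27) and Lhx2 (-0.52) did not pass. Otx2 lost its call without Fbln1-positive cells (log2FC -1.38, edgeR adjusted p = 0.0529), and Sox9 kept it (edgeR adjusted p = 0.000713).

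Across all genes with at least 2 UMIs per 10000 in the Ttr-rich cells of each mouse, the 15 with the largest fall included Sema3c, a secreted guidance factor, at 0.0575 and 0 UMIs per 10000 in gated cells against 3.22 and 3.23, which was 1 UMI in R1. Trf (chr9:103204001-103230444, minus strand) was at 5.69 and 1.70 against 129.7 and 120.6 (log2FC -5.83 ± 0.50, edgeR adjusted p = 8.74e-29). Col8a2, a collagen of basement membranes, was at 0.403 and 0.121 against 9.95 and 8.68. The paraoxonase Pon1, the amino acid transporters Slc1a1 and Slc7a10, the calcium exchanger Slc24a1, and Ndrg2, Cdr2, Basp1, Ermn and Myrf completed the set with Slc16a8, Rpe65 and Rgr. Their log2FC lay between -7.04 and -5.01, and none of the gated values reached a Ttr-rich value. The genes were chosen for the largest fall and for lower levels in both mice, so neither statement is a finding.

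Of 19 melanosome genes outside the gate, 4 were called higher and 2 lower with TMM, beside 3.06% and 5.57% of all genes. Without TMM 6 were called higher and 1 lower, beside 7.61% and 2.95% of all genes. With TMM the median log2FC was -1.35 (-0.07 with the 3 genes at 0 at their bound, and 0.59 over the 11 genes with at least 10 UMIs in gated cells or as many expected there at the Ttr-rich level). The summed level of the list was 56.4 and 50.2 UMIs per 10000 in gated cells against 13.6 and 10.9 in Ttr-rich cells. Pmel, the protein of the melanosome fibrils, was at 7.71 and 9.72 UMIs per 10000 in gated cells against 0.449 and 0.175 (log2FC 4.22 ± 0.36, edgeR adjusted p = 1.1e-28). Gpnmb, a related glycoprotein, was at 20.1 and 15.5 against 1.31 and 0.764 (log2FC 3.44 ± 0.34, edgeR adjusted p = 3.33e-22). Tyrp1 was at 14.8 and 14.3 against 1.61 and 1.199 (log2FC 2.69 ± 0.33, edgeR adjusted p = 2.01e-14), and Mlph, which links melanosomes to myosin, was higher on 13 and 2 UMIs. In each of these genes both gated values exceeded both Ttr-rich values. Tyr, the rate-limiting enzyme of melanin synthesis, was at 6.79 and 3.04 against 2.39 and 1.85 and was called higher only without TMM (edgeR adjusted p = 0.572 with TMM and 0.000547 without). Gpr143 and Rab27a were called lower, with a log2FC of -3.05 and -1.40, and Rab27a did not pass without TMM. Slc24a5, Oca2 and Slc45a2 did not pass under either scaling.

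Pmel was unevenly spread, with UMIs in 18 of 53 and 8 of 16 gated cells and up to 104 UMIs per 10000 in a single cell, whereas Tyrp1 was found in 49 and 14. Since the pigment genes are known targets of MITF, which binds the E-box CATGTG with a preceding T in the promoters of the tyrosinase family, their promoters are shown around that motif. RefSeq promoters of GRCm38.p6, from 250 bases before to 50 after the start, were given for 5 of 7 pigment genes (Dct, Trpm1, Tyr, Tyrp1 and Gpnmb, not Mlana and Pmel). TCATGTG or its reverse complement CACATGA was present in 4 of the 5, all but Gpnmb, and in 3.77% of all 32851 promoters. The shorter CATGTG, which TCATGTG contains, was in the same 4 genes and 14.2% of all promoters, and TAATCC, a site of OTX factors, in 3 of the 5 (Dct, Trpm1 and Tyrp1) and 7.06%. Each sequence reads 5′ to 3′ on the strand of its gene, with TCATGTG or CACATGA in capitals, and the distance is from the first base of the motif to the start of the gene.
Dct, chr14:118052452-118052496, minus strand, 232 bases before the start: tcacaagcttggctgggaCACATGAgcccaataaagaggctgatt
Dct, chr14:118052371-118052417, minus strand, 151 bases before the start: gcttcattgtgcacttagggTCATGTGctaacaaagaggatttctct
Trpm1, chr7:64153673-64153719, plus strand, 142 bases before the start: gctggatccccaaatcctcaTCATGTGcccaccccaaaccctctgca
Tyr, chr7:87493508-87493554, minus strand, 22 bases before the start: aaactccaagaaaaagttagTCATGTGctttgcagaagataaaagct
Tyrp1, chr4:80834146-80834192, plus strand, 47 bases before the start: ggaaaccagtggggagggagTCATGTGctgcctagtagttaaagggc
A match describes the letters of the window and is not a measured binding site. The motif was chosen because it is known from the promoters of the tyrosinase family, so its presence in Tyr, Tyrp1 and Dct is no finding. Dct had both orientations, and the second of the 2 RefSeq promoters of Trpm1 held CATGTG without the preceding T. None of the 3 motifs was found in the promoters of Gpx3, Reln, Necab2 and Pax6, and the promoter of Map1b held TAATCC alone. The promoter of Col3a1, a fibroblast gene of the gate, held CATGTG without the preceding T.

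**Figure D3:**
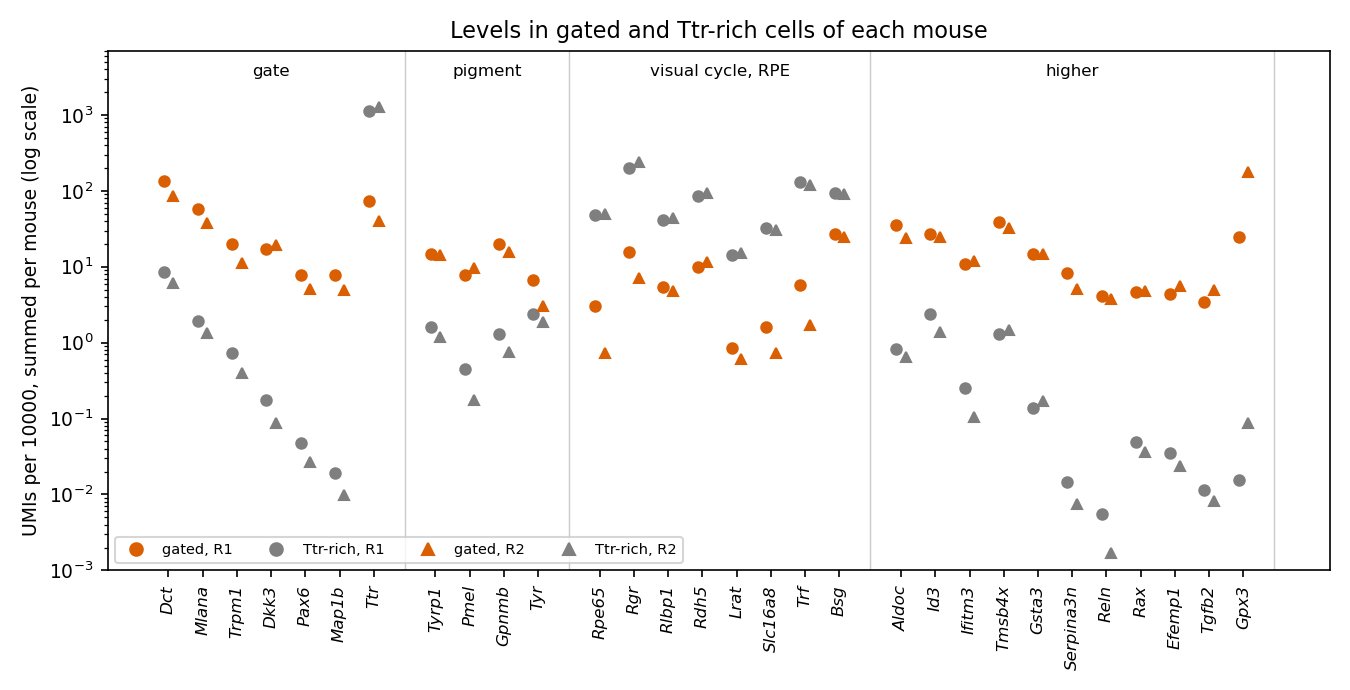
Level of selected genes (vertical, UMIs per 10000 in the sum over cells of a mouse, log scale) in gated cells (orange) and Ttr-rich cells (grey) of R1 (circles) and R2 (triangles), grouped as genes of the gate, pigment genes, genes of the visual cycle and mature RPE, and genes higher in gated cells. Rpe65 lies at 3.05 and 0.729 in gated and at 47.6 and 49.2 in Ttr-rich cells, and Aldoc at 35.8 and 24.0 against 0.813 and 0.649.

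Among the genes higher in gated cells, Aldoc, the aldolase of brain and other neural tissue, was one of the most abundant. It (chr11:78322968-78327781, plus strand, GRCm38) was at 35.8 (R1) and 24.0 (R2) UMIs per 10000 in gated cells against 0.813 and 0.649 in Ttr-rich cells (log2FC 4.64 ± 0.36, edgeR adjusted p = 7.31e-35). In the thinned cells it was found in 92.5% of gated and 13.0% of Ttr-rich cells of R1 and in 93.8% and 11.2% of R2, and without thinning in 94.3% and 38.2% and in 100% and 32.2%. Id3, an inhibitor of basic helix-loop-helix factors, was at 26.8 and 24.4 against 2.38 and 1.39 (log2FC 3.11 ± 0.34, edgeR adjusted p = 2.82e-18). Tmsb4x, which binds actin monomers, was at 38.3 and 32.5 against 1.31 and 1.45, and Mgst1, a microsomal glutathione transferase, at 37.6 and 36.1 against 2.38 and 2.51. Gsta3, whose near-identical paralogs can share reads, was at 14.9 and 14.6 against 0.140 and 0.169, and the long non-coding RNA Gm20383 at 9.55 and 7.77 against 0.0417 and 0.0379. Gsta3 and Gm20383 were picked for naming after their values were seen. The study names Dkk3 and Map1b, which are in the gate, and further genes for stem or progenitor cells. Among the latter, Mgst1, Gpx3 and Gsn are named through their human orthologs in cancer stem cells. Of 12 such genes outside the gate (Aldoc, Id3, Tmsb4x, Anxa2, Nbl1, Rax, Rarres2, Ifitm3, Folr1, Gpx3, Gsn and Mgst1), 12 were called higher under both scalings. The study picked them on its cluster C1 of the same 2 mice, so the count is not independent evidence of direction. Its own enrichment analysis found no stem or progenitor processes among the genes higher in C1. How far that cluster and the gated cells are the same cells was not tested.

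Of the called genes with at least 5 UMIs, and UMIs in at least 20% of the gated cells, in each mouse, the 15 with the largest rise were Gpx3, Reln, Necab2, Angptl2, Nbl1, Stac, Cacng4, Pdlim4, Rab27b, Serpina3n, Papss2, Spag5, Tgfb2, Fxyd1 and Car2. Reln (chr5:21884454-22344702, minus strand), the secreted glycoprotein reelin, was at 4.14 and 3.76 UMIs per 10000 in gated cells and at 0.00546 and 0.00169 in Ttr-rich cells (log2FC 9.46 ± 0.57, edgeR adjusted p = 4.3e-59). It was found in 32 of 53 and 13 of 16 gated cells. Serpina3n, a secreted protease inhibitor with close paralogs, was at 8.17 and 5.10 against 0.0148 and 0.00745 (log2FC 8.55 ± 0.46, edgeR adjusted p = 5.48e-72). Car2, a cytosolic carbonic anhydrase, was at 2.53 and 3.64 against 0.00935 and 0.00677, Papss2, which makes the sulfate donor for proteoglycans, at 1.78 and 2.91 against 0.00546 and 0.00271, and Fxyd1, a regulator of the sodium pump, at 1.495 and 3.28 against 0.00468 and 0.00575. Necab2 is a neuronal calcium-binding protein, Cacng4 an auxiliary subunit of calcium channels and glutamate receptors, and Rab27b a GTPase of secretory vesicles. Their log2FC was 8.95, 8.79 and 8.71. Spag5, which encodes a protein of the mitotic spindle, was at 3.28 and 1.70 against 0.00585 and 0.00406. On GRCm38 (GENCODE) it ends at base 78322457 of chromosome 11, 510 bases before the start of Aldoc on the same strand, and whether reads of Aldoc enter its count was not tested. Of 9 genes of proliferation, 7 had no UMI in the gated cells of both mice, Mki67, Top2a and Cdk1 among them, Pcna had 21 UMIs in R1 and 1 in R2, and Tyms 4 in each. Of the 4 genes tested Cdk1 alone was called, lower (edgeR adjusted p = 0.00291), and not without Fbln1-positive cells.

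Gpx3 (chr11:54902453-54910377, plus strand), a secreted glutathione peroxidase, divided the gated cells. It was at 25.01 and 175 UMIs per 10000 against 0.0156 and 0.0887 (log2FC 10.10 ± 0.52, edgeR adjusted p = 2e-80), but it was found in only 16 of 53 and 10 of 16 gated cells. Its high values lay in cells that also held Fbln1, the matrix protein fibulin 1 (chr15:85205949-85286535). The division was seen in the values and is given as a description with no test. Of the gated cells, 8 in R1 and 6 in R2 had Fbln1 UMIs, with a lowest count of 2 in R1 and 11 in R2, and the other 45 and 10 had 0. In the Fbln1-positive cells Gpx3 ranged from 27.0 to 319 UMIs per 10000 in R1 (median 134) and from 52.8 to 466 in R2 (median 297). In the Fbln1-negative cells it ranged from 0 to 7.75 and from 0 to 10.8, with a median of 0 in each mouse. The ranges did not overlap in either mouse.

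A set of genes went with Fbln1. Mfap4, a protein of elastic microfibrils, was found in 8 of 8 and 6 of 6 Fbln1-positive cells and in 1 of 45 and 0 of 10 others. Penk, the enkephalin precursor, was found in 6 and 6 and in 1 and 1 others, and Crhbp, which binds corticotropin-releasing hormone, in 7 and 6 and in 1 and 1 others. Zic1 and Zic4, neighbouring zinc finger transcription factor genes, were found in 5 and 5 and in 6 and 4 Fbln1-positive cells and in 0 others. Optc, the vitreous protein opticin, was found in 2 of 8 and 3 of 6 and in 0 others, with 27 of its 28 UMIs of R1 in a single cell. Tsc22d1 ranged from 53.4 to 154 UMIs per 10000 in R1 and from 30.2 to 67.5 in R2, against 0 to 20.6 and 0 to 31.3 in the Fbln1-negative cells. Ptgds, which makes prostaglandin D2 and had the most UMIs of all genes in the gated cells of both mice, was at 1350.3 and 952 in the sums of Fbln1-positive cells and at 96.5 and 122 in those of the others.

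Dct and Mlana went the other way. Dct ranged from 50.5 to 279 UMIs per 10000 (median 153) in the 45 Fbln1-negative cells of R1 and from 102 to 220 (median 171) in the 10 of R2. In the Fbln1-positive cells it ranged from 0 to 45.3 (median 13.6) and from 0 to 65.4 (median 19.2), below every Fbln1-negative cell of the same mouse. Mlana had medians of 63.4 and 76.8 without Fbln1 and of 11.5 and 8.11 with it. Aldoc had medians of 42.3 and 36.4 without Fbln1 and of 3.97 and 5.65 with it, and Id3 of 27.2 and 45.7 and of 4.83 and 9.98. Map1b was found in 34 of 45 and 8 of 10 Fbln1-negative cells but in 1 of 8 and 1 of 6 Fbln1-positive ones, and Serpina3n in 27 and 5 against 1 and 1. Dkk3 was found in 8 of 8 and 6 of 6 Fbln1-positive cells and in 44 of 45 and 10 of 10 others, with medians of 32.1 and 20.0 UMIs per 10000 with Fbln1 and of 11.3 and 12.2 without it. Trpm1 had medians of 20.3 and 12.7 with Fbln1 and of 15.5 and 10.5 without it. Tyrp1 had medians of 14.7 and 7.79 with Fbln1 and of 13.2 and 19.9 without it. Pax6 was found in 7 and 5 Fbln1-positive cells and in 38 and 6 others. The ranges of Dkk3, Trpm1, Tyrp1, Pax6, Aldoc and Id3 overlapped in both mice and that of Mlana in R1. Rgr, at medians of 14.7 in both kinds of cell in R1 and of 5.96 and 7.89 in R2, was as low in the Fbln1-positive cells as in the others. Rpe65 was found in 7 of 8 and 2 of 6 Fbln1-positive cells and in 23 of 45 and 2 of 10 others. Its medians were 5.55 with Fbln1 and 2.40 without it in R1, and 0 in both kinds of cell in R2.

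**Figure D4:**
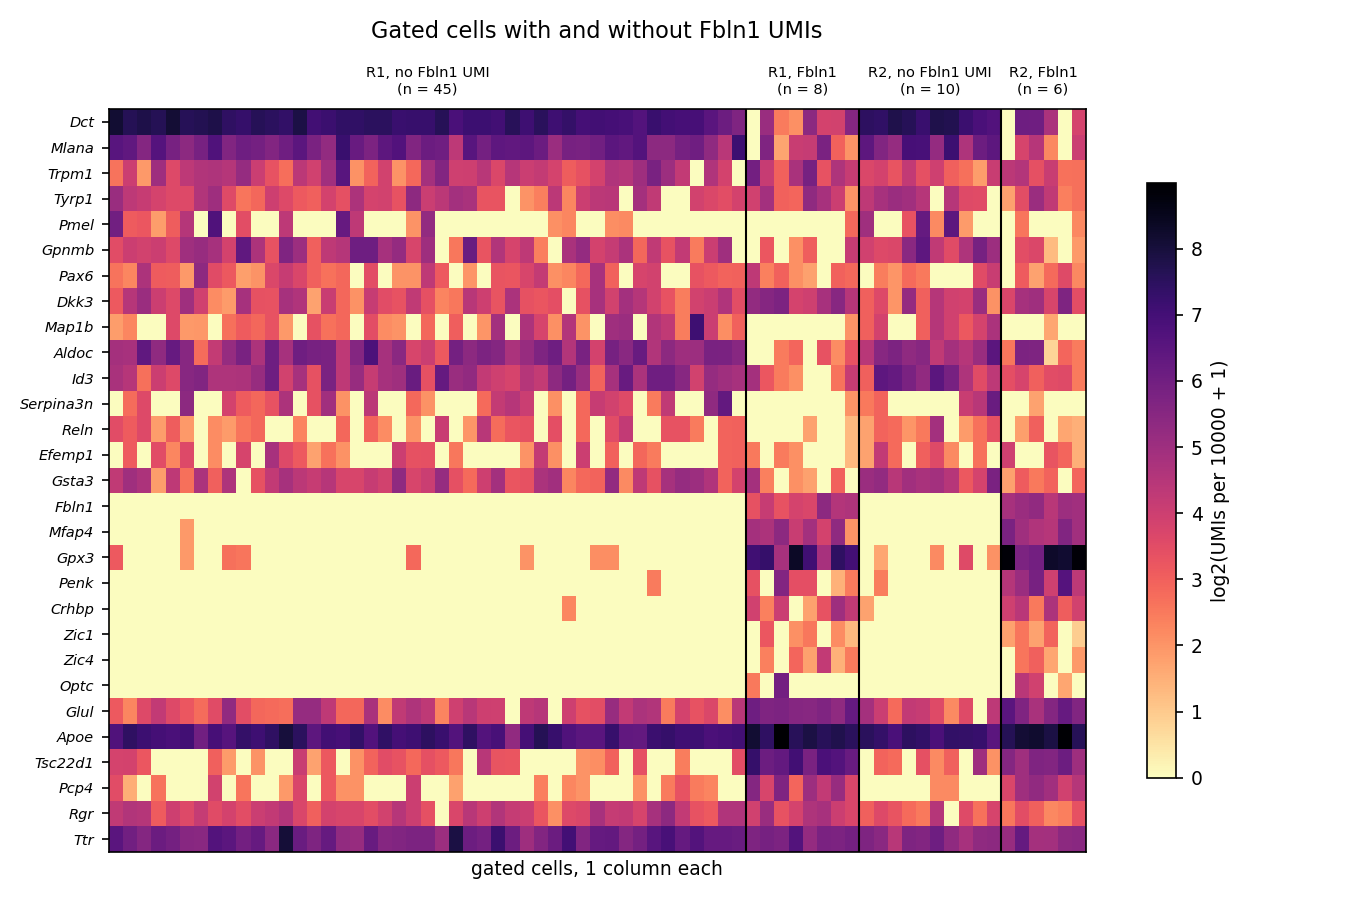
Level of selected genes (rows) in the 69 gated cells (columns), as log2 of UMIs per 10000 plus 1 in colour, with cells split by mouse and by the presence of Fbln1 UMIs and sorted by their Fbln1 and then Dct UMIs. Fbln1, Mfap4, Gpx3, Zic1 and Zic4 mark the columns of the 8 and 6 Fbln1-positive cells, in which Dct, Mlana, Aldoc and Map1b are paler, while Dkk3, Pax6 and Tyrp1 were found in both kinds of cell.

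Depth differed between these cells in R2. The Fbln1-positive cells had a median of 3610.5 UMIs in R1 and 6792.5 in R2, up to 6628 and 13692, and the others a median of 3205 and 3560, up to 5221 and 4532. No doublet caller was run. The Fbln1-positive cells had a median Ttr share of 0.535% and 0.374%, against 0.676% and 0.416% in the others. Fbln1 and Mfap4 are also known from fibroblasts, and the fibroblast-marked cells held 4.59 and 5.17 UMIs per 10000 of Fbln1 and 33.0 and 0 of Mfap4. Dcn, the proteoglycan decorin of fibroblasts, was at 161 and 249.8 in those cells and had no UMI in gated cells. The gate left out cells with 3 or more fibroblast genes and the fibroblast-marked cells were chosen by them, so this difference follows in part from the choice of cells. Penk, Crhbp, Zic1 and Best2 had no UMI in the few fibroblast-marked cells. Without the Fbln1-positive cells, a comparison added after the data were seen, 179 genes were called higher and 346 lower, of which 176 and 333 were among the genes called with them. The log2FC of Gpx3 fell from 10.10 to 4.30, and Gpx3 was still called (edgeR adjusted p = 0.00122). Mfap4, which had UMIs in 1 of the 45 and 0 of the 10 cells left, lost its call. Fbln1 was at 0 there by the choice of cells. The sums without these cells held fewer UMIs, and a call lost there does not by itself show a smaller difference.

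Of 27 transcription factors of the eye field and ciliary margin 14 passed the filter on low counts. Of these 6 were called higher and 0 lower, beside 3.06% and 5.57% of all genes (8 and 0 without TMM, beside 7.61% and 2.95%). Of the 6, 4 did not pass it without the Fbln1-positive cells, so this count too is a description. Rax, an early regulator of eye formation, was at 4.72 and 4.86 UMIs per 10000 in gated cells against 0.0491 and 0.0359 (log2FC 6.12 ± 0.44, edgeR adjusted p = 1.47e-40), and was higher with Fbln1 (7.44 and 5.41) than without it (4.13 and 4.15) in both mice, with no test. Otx1 was also called higher (log2FC 5.91). Six6, Zic1, Zic4 and Nr2f1 were called higher on UMIs of Fbln1-positive cells alone, and without those cells 2 of 10 tested, Rax and Otx1, were called. Sox2, Pax2 and Lmx1b had no UMI in gated cells. Hes5, a Notch target, was called higher on 16 and 8 UMIs in 4 and 1 cells, and all of them lay in Fbln1-negative cells.

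Genes known from the ciliary epithelium moved in both directions. Of 19 in the files 15 passed the filter on low counts, and 9 of these were called higher and 2 lower, beside 3.06% and 5.57% of all genes. Of the 15, 6 did not pass it without the Fbln1-positive cells, so the count of genes called higher is a description and supports nothing. Best2, a chloride channel of the non-pigmented ciliary epithelium, was at 0.863 and 2.91 UMIs per 10000 in gated cells against 0.000779 and 0.000338, found in 6 and 6 cells, all Fbln1-positive. Col9a1 and Optc were called higher on Fbln1-positive cells alone. Car2, Slc4a4, a sodium bicarbonate cotransporter, and Gja1, the gap junction protein connexin 43, were called higher with those cells and without them. Slc4a4 was at 7.02 and 4.13 against 0.212 and 0.212 (log2FC 4.01 ± 0.39, edgeR adjusted p = 1.19e-22), and Gja1 at 10.8 and 9.23 against 1.22 and 1.09. Car14 and Bmp4 were called lower, with a log2FC of -2.82 and -2.95. Without Fbln1-positive cells 9 genes passed the filter, of which 4 were called higher and 3 lower. The summed level of the list was 358 and 637 UMIs per 10000 in gated cells and 640 and 634 in Ttr-rich cells, most of it Ptgds, and Aqp1 and Aqp4 had at most 4 UMIs.

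Ion transport genes divided in both directions, with 5 of 18 called higher and 9 lower beside 3.06% and 5.57% of all genes (6 and 6 without TMM). Without Fbln1-positive cells 3 and 5 of 16 were called. Fewer of the genes passed the filter on low counts there, so the count of genes called higher is a description and supports nothing. The sodium pump subunit Atp1b3 rose from 0.306 and 0.344 to 6.61 and 9.59 UMIs per 10000 (log2FC 3.92 ± 0.36, edgeR adjusted p = 1.89e-25). The anion exchanger Slc4a2, the carbonic anhydrases Car12 and Car14 and the channels Kcnj13 and Trpm3 fell. Of the lactate and glucose transport genes 3 of 4 were called lower, Slc16a8, Bsg and Slc16a1, while Slc2a1, the glucose transporter GLUT1, was at 16.8 and 18.0 against 9.20 and 8.87 and was called higher only without TMM (edgeR adjusted p = 0.000329 against 0.811 with it).

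Of the matrix genes 5 of 23 were called higher and 6 lower beside 3.06% and 5.57% of all genes (8 and 6 without TMM). Without Fbln1-positive cells 1 of 20 was called higher, Efemp1, and 7 lower. Fewer matrix genes passed the filter on low counts without those cells, so the count of genes called higher is a description and supports nothing. Efemp1, fibulin 3, was at 4.37 and 5.59 UMIs per 10000 against 0.0355 and 0.0240 (log2FC 6.68 ± 0.45, edgeR adjusted p = 2.37e-46). Sparc was at 16.4 and 23.2 against 3.22 and 2.90 (log2FC 1.97 ± 0.32, edgeR adjusted p = 4.04e-08) and lost its call without the Fbln1-positive cells (log2FC 1.04). Timp3, Col8a1, Col8a2, Col9a3, Col4a3 and Col4a4 were called lower. Of 10 genes of engulfment 2 were called higher, Axl and its ligand Gas6, and 4 lower, Mertk, Tyro3, Itgav and Ctsd. These counts stand beside 3.06% and 5.57% of all genes (5 and 4 without TMM, beside 7.61% and 2.95%). Of 11 junction genes Gja1 was called higher and Cldn1, Cldn10, Cdh3 and Jam3 lower, beside 3.06% and 5.57% of all genes. Of those called lower DESeq2 called 2, Cldn1 and Cdh3. Jam3 was not called without TMM either, and neither Cdh3 nor Jam3 without Fbln1-positive cells.

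Of 18 genes of bone morphogenetic protein signalling 4 were called higher and 3 lower beside 3.06% and 5.57% of all genes, with a median log2FC of 0.18. Id1 and Id3, which this pathway induces, rose, as did its antagonists Nbl1 and Bambi (without Fbln1-positive cells Bambi was not called, at a log2FC of 3.58), while the ligand Bmp4 and the antagonists Nog and Sostdc1 fell. Of 12 genes of TGF-beta signalling 2 were called higher and 1 lower, beside the same shares of all genes (4 and 0 without TMM, beside 7.61% and 2.95%). Tgfb2 was at 3.45 and 4.98 UMIs per 10000 against 0.0113 and 0.00812 (log2FC 8.03 ± 0.51, edgeR adjusted p = 1.63e-51), in 25 of 53 and 11 of 16 gated cells, and Ltbp1, which stores latent TGF-beta in the matrix, also rose, while Cyr61, a matricellular protein, was the gene called lower with TMM (edgeR adjusted p = 0.0465). Cyr61 was called neither by DESeq2 nor without Fbln1-positive cells. Of 14 Wnt pathway genes 0 were called higher and 2 lower, Sfrp5 and Lrp5, beside 3.06% and 5.57% of all genes, and Lrp5 was not called without TMM or by DESeq2. Of 11 genes of antigen presentation and interferon response 4 were called higher and 0 lower, beside the same shares. Ifitm3 was at 10.9 and 11.9 against 0.254 and 0.105 and Isg15 at 3.05 and 1.70 against 0.0136 and 0.00372, and Ifit1 and Ifit3 were higher as well, although Ifit3 was not called without Fbln1-positive cells (log2FC 1.72 against 1.66 with them).

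Counts of energy genes depended on the scaling and on the filter on low counts. Of 15 glycolysis genes 3 were called higher and 0 lower with TMM, beside 3.06% and 5.57% of all genes. Without TMM 8 were called higher and 0 lower, beside 7.61% and 2.95% of all genes. Aldoc, Tpi1 (log2FC 1.22) and Ldha (1.74) passed with TMM, and Ldha lost its call without Fbln1-positive cells (log2FC 1.22). Of 79 nuclear genes of oxidative phosphorylation 5 were called higher and 3 lower with TMM but 43 and 1 without, beside 3.06% and 5.57% of all genes with TMM and 7.61% and 2.95% without. Their median log2FC was 0.10 with TMM and 0.81 without. Under a stricter filter on low counts, with TMM, 21 of 76 were called higher and 6 lower, beside 556 and 706 of all 4432 genes tested there. Without Fbln1-positive cells 1 was called higher and 1 lower, with a median log2FC of 0.20. The summed level of the list was 830 and 700.4 UMIs per 10000 in gated cells against 467 and 457 in Ttr-rich cells. It was 909 and 915 in the Fbln1-negative cells and 463 and 533 in the Fbln1-positive ones. Ribosomal protein genes gave 1 of 73 higher with TMM and 29 without, beside 3.06% and 7.61% of all genes. Under the stricter filter, with TMM, 11 of 46 were called higher, beside 556 of all 4432 genes tested there. Of 24 antioxidant genes 6 were called higher, Gpx3, Mgst1, Sod3, Gstm1, Prdx4 and Txn1, and 5 lower, Mt1, Mt2, Gpx4, Cat and Nqo1. These counts stand beside 3.06% and 5.57% of all genes (8 and 5 without TMM, beside 7.61% and 2.95%). Without Fbln1-positive cells Gpx3 and Mgst1 alone were called higher, and 5 were lower. Mt1, a metallothionein, was at 74.1 and 29.6 against 145 and 125 (log2FC -2.21 ± 0.43, edgeR adjusted p = 1.03e-05).

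Beside the short lists that follow, 3.06% of all genes were called higher and 5.57% lower with TMM, and 7.61% and 2.95% without it. Of 20 neuronal genes, 16 (R1) and 18 (R2) had no UMI in gated cells, Tubb3, Map2 and Snap25 among them, and Penk alone was called higher. Of 13 general stem cell genes, 8 had no UMI in either mouse, Sox2 and Nes among them, and Hes5 alone was called. Of 10 regulators of the cell cycle, Cdkn2c, an inhibitor of cyclin D kinases, was called higher at 1.21 and 1.09 UMIs per 10000 against 0.00701 and 0.00575, as was Ccnd2, while Ccnd1 was called lower. Ccnd2 (log2FC 1.83) lost its call without Fbln1-positive cells (1.08). Of 10 lipid genes, Lpl was called higher, on 10 and 3 UMIs, with a median log2FC over the list of -2.39 (-0.34 with the 3 genes at 0 at their bound), and the lipoprotein receptors Vldlr, Lrp1 and Lrp2 and the droplet protein Plin2 lower. Of 13 imprinted genes, Ndn and Meg3 were called higher, and all 9 and 5 UMIs of Meg3 lay in Fbln1-positive cells. Of 11 immediate early and stress genes, Jund and Dusp1 were called higher and Hspa1a lower. Of 6 iron genes, Cp was called higher, on 4 and 6 UMIs, all in Fbln1-positive cells. The genes encoded by mitochondria gave no call with TMM and 4 of 10 higher without it. Under a stricter filter on low counts, with TMM, 3 of 6 were called higher, beside 556 of all 4432 genes tested there. Fewer neuronal, imprinted and iron genes passed the filter without Fbln1-positive cells, so the counts of these lists are descriptions.

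Markers of other cell types were counted in the gated cells, and calls among them stand beside 3.06% of all genes called higher and 5.57% lower. Of 7 melanocyte markers of the neural crest, 5 had 0 UMIs in R1 and 7 in R2, and Sox10, their defining factor, had 2 UMIs (R1) and 0 UMIs (R2), against 0.619 and 0.569 UMIs per 10000 in Ttr-rich cells, a difference called by edgeR (adjusted p = 0.00162) but not by DESeq2 (adjusted p = 0.0576). Of 9 microglia markers, 8 and 9 had 0 UMIs, with 2 UMIs of Csf1r in R1. Of 8 rod markers in the files, 7 and 8 were at 0, rhodopsin among them, and of 6 cone markers 3 and 6. Of 14 markers of retinal neurons 9 and 11 were at 0, Slc6a9 had the most UMIs (7 and 9) and Trpm1, which bipolar cells share with pigment cells, is in the gate. Endothelial, pericyte and Schwann cell lists summed to at most 0.486 UMIs per 10000. Muller glia genes summed to 223 and 323 against 281 and 261, mostly Apoe and Clu, which the RPE expresses as well. Fbln1-positive cells held 340 and 388 and the others 198 and 239. Glul, the glutamine synthetase of Muller glia, had medians of 49.7 and 49.5 UMIs per 10000 with Fbln1 and of 11.7 and 13.2 without it. Their glutamate transporter Slc1a3 had 2 and 8 UMIs, 2 and 7 of them in Fbln1-positive cells. It was called higher together with Vim, while Clu was called lower, 3 of 5 genes tested. Without Fbln1-positive cells 4 genes of the list passed the filter on low counts and 0 were called. The count of genes called higher is therefore a description and supports nothing. The fibroblast list summed to 29.4 and 47.8 against 7.91 and 7.65, with Sparc and Fbln1 called higher. Dcn, Thy1, Col6a3, Fn1 and Col5a2, 5 of its 8 genes, were at 0. The gate left out cells with several other fibroblast genes, so these zeros follow in part from the choice of cells. Sparc was not called without the Fbln1-positive cells. The markers of smooth muscle summed to 0.575 and 0.729 against 2.50 and 2.54, with 5 of 8 at 0.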

How the data were processed

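Single-cell libraries were measured from 2 mice. Per the labels and the study's methods, the authors demultiplexed reads with bcl2fastq 2.20.0.422, aligned them to GRCm38 (mm10) and counted UMIs per gene and cell with Cell Ranger 1.2.0, and they deposited raw UMI counts for 27998 genes. R1 held 2844 cells and 26034378 UMIs (median 8379.5 per cell), and R2 held 2994 cells and 29732969 UMIs (median 7963). The labels and the study's methods name different chemistry versions of the droplet kit. The study's methods also give a lower number of sequenced cells for R2 than the 2994 counted here.

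UMIs were summed per mouse over gated and Ttr-rich cells, giving 4 libraries, since cells are not replicates. The gate, the lists of genes and the tests were chosen with earlier results of these data known. edgeR 4.0.16 (R 4.3.3, limma 3.58.1) fitted a quasi-likelihood model with TMM scaling, filterByExpr and mouse as block, because both sums of a mouse come from the same animal, with Benjamini-Hochberg adjustment at 0.05 over all genes tested. The SE of a log2FC is its size divided by the square root of the F statistic. P-values rest on 2 mice. The 13 gate genes were kept in the fit and given no test. Named genes were members of 43 lists that were called or abundant, the 15 called genes with the largest rise and the 15 with the largest fall by the limits stated, and the most abundant genes. Fbln1, Mfap4, Crhbp, Tsc22d1, Gsta3 and Gm20383 were picked after their values were seen.

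Levels are UMIs per 10000. Cells were thinned to 2000 UMIs for shares, which left out no cell. Intervals and floors (3 UMIs) cover counting error only. No doublet caller was run. Gene positions are from GENCODE on GRCm38, promoters from RefSeq. Dct, Trpm1, Pax6, Map1b, Reln and Trf overlap other annotated genes, and their counts may be incomplete. Python 3.11.15 with numpy 2.4.6, pandas 2.3.3 and scipy 1.17.1 was used, matplotlib 3.10.9 for plots, and the test was tried on simulated data. DESeq2 1.42.0 was an alternative. Values of some genes of the lists are not reported here.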

Additional observations from a re-analysis of the deposited data

Results flagged for a closer look

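Cells above the mitochondrial limit of 5% enter no comparison. Among them, 5 cells of R1 and 2 of R2 met every other part of the gate, so that pigment cells with Pax6, Dkk3 or Map1b and little Ttr also occurred outside the set described. With the limit at 10%, 382 genes were called higher and 693 lower.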

How the results depend on the processing

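No gene was called in opposite directions under any alternative run, and the 30 genes named for the largest rise or fall kept their call and direction under each alternative with a test. The number called moved more. Without TMM 872 genes were called higher and 338 lower. A stricter filter on low counts gave 556 higher and 706 lower, among 4432 genes tested. Without the replicate block, which pairs the sums of a mouse, 800 were higher and 1111 lower. DESeq2 called 365 higher and 359 lower. Without the Fbln1-positive cells, an alternative chosen after seeing the data, 179 were higher, 346 lower, and 4 ciliary epithelium genes higher in place of 9. The cause of these changes was not tested. The other alternatives, on the gate, the Ttr-rich cells, the filter, free RNA and scaling, gave 305 to 382 higher and 510 to 693 lower. Visual cycle genes called lower were 9 under every alternative run. Aldoc was found in 100% of gated cells of R2 when cells were not thinned. Leaving out 1 mouse leaves no residual degrees of freedom, so that counts of calls cannot be had. The values of the 30 named genes kept their direction in each mouse alone, which the choice of these genes required. Depth limits genes with few UMIs in the 82343 UMIs of the gated cells of R2.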
